A study of Mus musculus with 9 samples.

Results

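Interferon-stimulated genes (ISGs) are genes whose transcription rises when a cell responds to interferon. The 44 ISGs described here were taken by symbol from a written list. They fall into 8 role groups: sensors of viral nucleic acid, transcription factors, the IFIT family, the ISG15 system with its ubiquitin ligases, the OAS family, other antiviral effectors, GTPases of the GBP and IRG families, and antigen processing. Of the 44, 42 were listed in the feature tables of all 9 libraries and were analysed among the 30406 gene identifiers that these tables share. Mx1 was listed for 6 of the libraries and Mx2 for none. The question was how the levels of these genes differ between macrophage-like, neuron-like, fibroblast-like and Schwann-like cells, and within each class between genotypes and days.

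Interferons of type I bind the receptor made of IFNAR1 and IFNAR2, and the kinases JAK1 and TYK2 then phosphorylate STAT2, among others. STAT2 and IRF9 are parts of a complex, ISGF3, that binds the interferon-stimulated response element (ISRE) in the promoters of many ISGs, while interferon gamma acts mainly through another element, GAS. The products detect viral nucleic acid, block translation or virus entry and release, and supply peptides to MHC class I, and cells without infection hold a basal level of them that depends on the cell type. Macrophages are known for strong interferon responses.

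The data are single-cell RNA counts (10x Genomics 3′ libraries) of mouse embryonic fibroblast (MEF) cultures that were being converted to induced neurons. All cultures had received lentivirus for neuronal transcription factors and were kept in medium with doxycycline, which turns these factors on, so that no library is of untransduced cells. The groups were WT, Per1-/- and Per2-/- cultures on days 4, 7 and 10 after the change to doxycycline medium, and each genotype gave 1 library on each of these days. The mutants, as the study's methods state, carried the germline alleles Per1tm1Drw and Per2tm1Drw of these clock genes on a B6.129 background. MEFs were prepared from embryos without head and heart, several embryos were pooled per dish, and their sex was not determined. The labels call the samples induced neurons and do not name the other cell types of the culture, which were recognised here by marker genes. With 1 library per genotype and day, the days served as the repeats of a genotype in the tests, so that p-values measure the spread between these libraries, which may or may not hold that between embryos or preparations.

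Libraries held 126625215 to 353198559 unique molecular identifiers (UMI) in 6885 to 13309 barcodes, and 74835 cells were kept, 6047 to 10663 per library. The library of WT on day 10 stood apart, since its median barcode held 3552 UMI and the limits on UMI and mitochondrial share left 55.4% of its barcodes. Day 10 was also counted with another software version and feature table. Its macrophage-like and neuron-like cells formed clusters of their own, and most of its fibroblast-like cells lay in clusters with few cells of the earlier days. Day 10 and its processing therefore cannot be told apart. Of the barcodes that passed, 824 occurred in more than 1 library. The Per1-/- libraries of days 7 and 10 held 0.067 and 0.059 CPM (UMI counts per 1000000) of Xist, which female cells express, and 209 and 216 CPM of Y-linked genes, against 347 to 996 CPM of Xist and 50.9 to 117 CPM of Y-linked genes in the other libraries, that of Per1-/- on day 4 (488 and 117 CPM) among them. These 2 libraries thus differ from the Per1-/- library of day 4 in the sex of their cells, and whether the 3 came from the same preparation was not tested. The targeted transcripts were not lower in the mutants: Per1 was at 9.14 to 10.3 CPM in the libraries labelled Per1-/- and at 6.34 to 7.89 CPM in WT, and Per2 was at 4.97 to 6.39 CPM in those labelled Per2-/- and at 2.58 to 2.99 CPM in WT. Counts of 3′ ends do not check an allele that leaves the 3′ end in place, so genotypes below are those of the labels. The study examined the proteins by western blot, which is not analysed here.

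The classes held 6406 macrophage-like, 6754 neuron-like, 40015 fibroblast-like and 2531 Schwann-like cells, with 136 to 1391, 174 to 1563, 2390 to 6797 and 111 to 1000 per library. Csf1r, the receptor for the macrophage growth factor M-CSF, had a UMI in 99.5% of macrophage-like cells and in 2.71% to 4.99% of the cells of the other classes. The neuronal gene Stmn2 had one in 82.5% of neuron-like cells against 15.1% to 25.9%, and Sox10, a transcription factor of the Schwann lineage, in 99.1% of Schwann-like cells against 0.563% to 1.61%. The collagen gene Col1a1 was at 6788 CPM in fibroblast-like cells and at 88.6 to 442 CPM in the others. ISGs were left out of the genes used for clustering. The fibroblast-like class was made of 8 clusters whose shares differed between libraries. The largest held 35.4% to 77.3% of the class in a library, and 1 cluster held 66.1% of it in Per2-/- of day 10 and another 77.3% in Per1-/- of day 10, so that fibroblast-like values compare libraries of unlike make-up.

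Promoter sequences show which ISGs carry the letters of the elements named above. RefSeq promoters (GRCm38.p6, from 250 bases before to 50 after the start of the gene) were found for 35 of the 44 ISGs. The ISRE letters TTTCNNTTTC, or GAAANNGAAA on the other strand, occurred in 19 of these 35 (54.3%) and in 1079 of 27025 genes (3.99%). The GAS letters TTCNNNGAA, which read the same on both strands, occurred in 11 (31.4%) against 9.55% of all genes, 7 ISGs held both and 12 neither, and in 2 of the windows the matches shared bases. All 6 GBP and IRG genes with a promoter and all 3 sensors held the ISRE letters, as against none of the 3 antigen processing genes. Such a match describes letters in a window and is not a measured binding site. The 200 bases before the start are printed for genes on which the comparisons below turn, with the ISRE letters in capitals. Isg15, a ubiquitin-like modifier, held 3 overlapping matches (chr4:156200819-156201018, minus strand). The near-identical neighbours Ifit3 (chr19:34583329-34583528, plus strand) and Ifit3b (chr19:34607757-34607956, plus strand) held the same 2 matches, and Gbp7 (chr3:142530136-142530335, plus strand) held 1. Rsad2 (chr12:26456453-26456652, minus strand) held 1 and its divergent neighbour Cmpk2 (chr12:26469015-26469214, plus strand) none.
Isg15: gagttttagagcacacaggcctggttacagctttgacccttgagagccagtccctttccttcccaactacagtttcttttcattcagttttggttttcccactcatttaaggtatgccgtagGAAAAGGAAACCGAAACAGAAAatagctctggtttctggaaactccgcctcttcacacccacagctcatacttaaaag
Ifit3: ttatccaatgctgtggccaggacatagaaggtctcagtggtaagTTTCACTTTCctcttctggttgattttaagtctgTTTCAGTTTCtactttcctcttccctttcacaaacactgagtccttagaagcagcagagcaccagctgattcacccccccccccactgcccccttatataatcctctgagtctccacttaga
Ifit3b: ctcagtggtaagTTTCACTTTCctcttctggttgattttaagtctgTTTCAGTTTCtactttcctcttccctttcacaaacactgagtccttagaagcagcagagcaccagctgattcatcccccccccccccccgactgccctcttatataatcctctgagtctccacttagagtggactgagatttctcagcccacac
Gbp7: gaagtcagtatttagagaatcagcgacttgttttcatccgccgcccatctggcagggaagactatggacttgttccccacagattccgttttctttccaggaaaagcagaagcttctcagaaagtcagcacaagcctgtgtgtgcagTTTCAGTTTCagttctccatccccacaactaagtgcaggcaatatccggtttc
Rsad2: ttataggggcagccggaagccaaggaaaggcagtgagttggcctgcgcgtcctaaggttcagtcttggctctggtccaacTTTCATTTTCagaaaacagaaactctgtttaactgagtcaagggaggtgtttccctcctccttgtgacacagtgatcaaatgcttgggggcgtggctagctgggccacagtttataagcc
Cmpk2: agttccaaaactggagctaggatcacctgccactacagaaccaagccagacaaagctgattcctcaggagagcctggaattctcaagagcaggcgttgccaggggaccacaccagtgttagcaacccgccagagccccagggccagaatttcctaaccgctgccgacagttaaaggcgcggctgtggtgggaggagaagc

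Summed over the 42 ISGs, levels were highest in the macrophage-like class at 3214 ± 1186 CPM (mean ± SD over the 9 libraries), while the fibroblast-like class had 2012 ± 284 CPM, the Schwann-like class 1779 ± 580 CPM and the neuron-like class 247 ± 36.7 CPM. Macrophage-like cells ranged from 1602 to 5245 CPM, fibroblast-like cells from 1665 to 2572 CPM, Schwann-like cells from 789 to 2707 CPM and neuron-like cells from 201 to 299 CPM. The neuron-like range lay below all others, while the other 3 ranges overlapped. Bst2 (tetherin, which holds budding virus at the cell surface) and Ifitm3 (which blocks virus entry) made up much of these sums, 35.7% to 48.3% in macrophage-like, 43.2% to 63.4% in fibroblast-like, 22.4% to 41.9% in Schwann-like and 5.01% to 20.7% in neuron-like cells. Without these genes the order of the fibroblast-like and Schwann-like means turned, since the other 40 ISGs summed to 921 ± 175 CPM in the fibroblast-like and 1172 ± 332 CPM in the Schwann-like class, with overlapping ranges, and to 1897 ± 795 CPM in the macrophage-like and 216 ± 24.7 CPM in the neuron-like class. By mean level, 27 of the 42 ISGs were highest in macrophage-like cells, 8 in Schwann-like cells (Ddx58, Gbp2, Gbp3, Gbp7, Ifit3, Ifit3b, Irf1 and Xaf1), 6 in fibroblast-like cells (Ifi44, Ifit1, Ifitm3, Iigp1, Isg15 and Stat2) and 1, Cmpk2, in neuron-like cells. By the median over libraries the counts were 25, 11, 5 and 1, since Ifit2, Usp18 and Isg15 were then highest in Schwann-like cells.

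**Figure D1:**
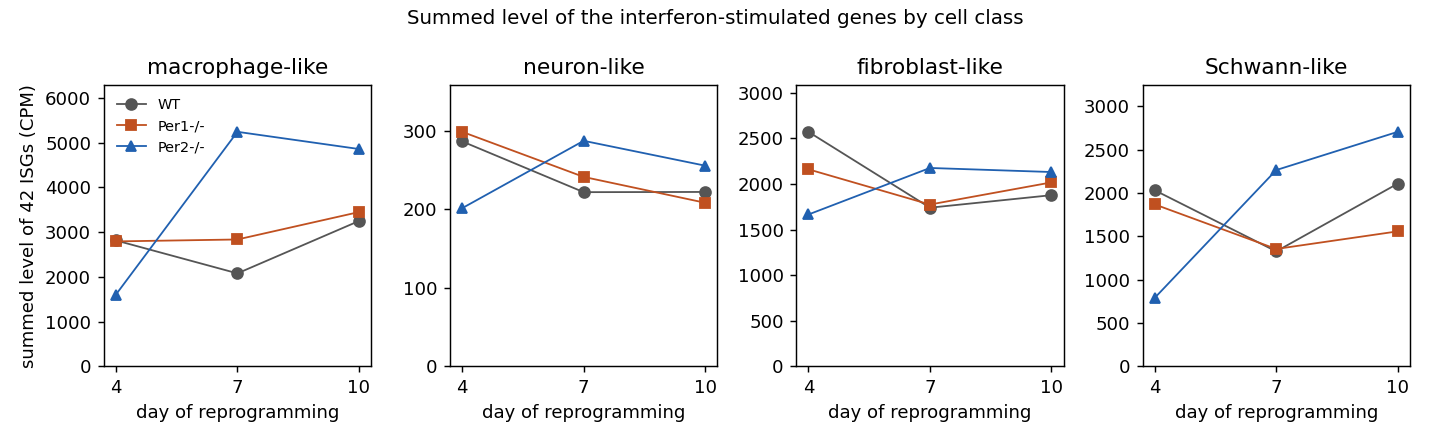
Summed level of the 42 ISGs (CPM) in each class on days 4, 7 and 10, with a point for each library and colours for WT, Per1-/- and Per2-/-. Neuron-like cells lie between 201 and 299 CPM on every day, and in macrophage-like cells the Per2-/- library is the lowest on day 4 (1602 CPM) and the highest on days 7 (5245 CPM) and 10 (4860 CPM).

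Compared with fibroblast-like cells, macrophage-like cells had higher levels of 33 of the 42 ISGs and lower levels of 5, by the edgeR quasi-likelihood test with Benjamini-Hochberg adjustment over all genes (adjusted p under 0.05). The classes differ in most genes: of 16499 genes tested 84.8% passed, 36.7% higher and 48.2% lower in macrophage-like cells, so a count of calls by itself says little about ISGs. The median log2 fold of the 42 was 1.28, against -0.20 over all genes tested. By role, all 5 sensors, all 5 OAS genes and all 3 antigen processing genes were higher, as were 3 of 4 transcription factors, 3 of 4 IFIT genes, 2 of 4 genes of the ISG15 system, 8 of 10 other effectors and 4 of 7 GTPases.

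The OAS family includes enzymes that make the 2-5A that activates RNase L when double-stranded RNA is present, and it held the 2 largest folds of this comparison. Oas3 ranged from 5.54 to 46.7 CPM in macrophage-like cells, with a median of 17.3, and reached at most 0.161 CPM in fibroblast-like cells. Every macrophage-like library was therefore above every fibroblast-like one, with a log2 fold of 8.53 (SE 0.22, adjusted p = 6.2e-12). Its fibroblast-like level rested on 71 UMI in all and was 0.330% of the pooled macrophage-like level, within the 0.138% to 0.384% at which macrophage marker genes stood in fibroblast-like cells, so the size of this fold depends on a level no higher than that of such markers. Oas2 had a lowest, median and highest level of 8.20, 15.9 and 38.0 CPM in macrophage-like cells and of 0.262, 0.651 and 0.931 CPM in fibroblast-like cells, a log2 fold of 5.10 (SE 0.18, adjusted p = 7.7e-11). The ranges of this gene did not overlap either. Oas1a was higher by 4.57 on the log2 scale and Oasl2, an OAS-like protein, by 1.10.

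Psmb8 and Psmb9, subunits of the immunoproteasome that cuts proteins into peptides for MHC class I, were higher by 3.60 and 3.59 on the log2 scale. Psmb8 ranged from 133 to 237 CPM in macrophage-like and from 8.52 to 33.9 CPM in fibroblast-like cells, and the ranges did not overlap. Tap1, which carries these peptides into the endoplasmic reticulum, was higher by 1.03. Among the sensors, Zbp1 (which binds Z-form nucleic acid) was higher by 3.55 and Dhx58 (a regulator of RIG-I-like receptors) by 2.76, and Ddx58, which encodes RIG-I itself, by 0.72. Other effectors with large folds were Rsad2 (viperin, a radical SAM enzyme) at 4.65 and Parp14 (an ADP-ribosyltransferase) at 3.62. Irf7, the transcription factor that drives type I interferon genes, was higher by 1.69.

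The ISGs that were lower in macrophage-like cells were Iigp1, Ifi44, Isg15, Ifit1 and Ifitm3. Iigp1 encodes an IRG GTPase that acts on parasite vacuoles. Its lowest, median and highest levels were 0.964, 5.88 and 38.0 CPM in macrophage-like cells and 14.3, 33.6 and 62.9 CPM in fibroblast-like cells (log2 fold -2.07, SE 0.40, adjusted p = 0.00042). These ranges overlapped, with 32.8 and 38.0 CPM in the Per2-/- macrophage-like cells of days 7 and 10. Ifi44 had 0.241, 3.51 and 9.48 CPM in macrophage-like cells and 9.94, 14.4 and 21.4 CPM in fibroblast-like cells, with no overlap (log2 fold -1.83, SE 0.31, adjusted p = 0.00014). Isg15 was lower by 0.89 on the log2 scale, Ifit1 (which binds viral RNA caps) by 0.85 and Ifitm3 by 0.62. Stat2, Usp18, Gbp2 and Gbp3 did not pass the test.

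**Figure D2:**
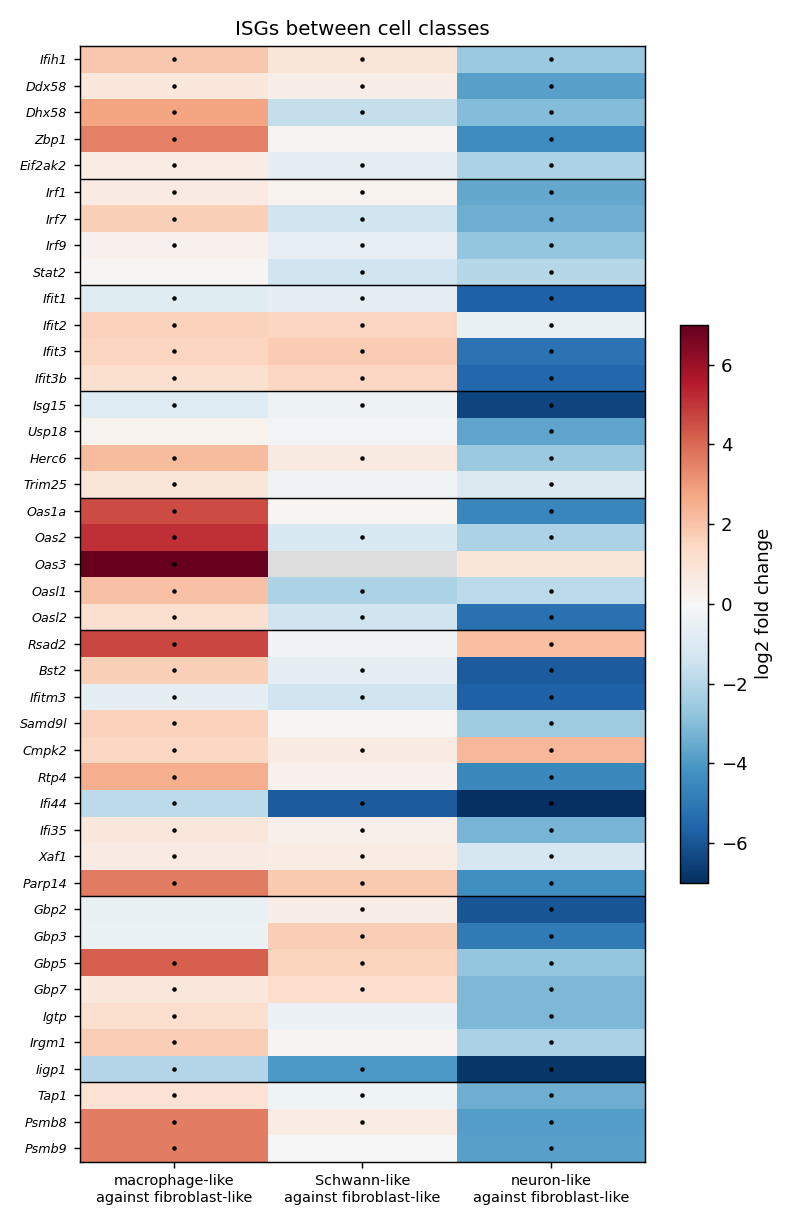
Log2 fold of each ISG between classes from the edgeR fit, with ISGs in rows by role group and macrophage-like, Schwann-like and neuron-like cells, each against fibroblast-like cells, in columns. Dots mark folds past the threshold (38 of 42, 31 of 41 and 41 of 42 from left to right), colours stop at 7 in either direction, and Oas3 is grey where it was not tested in Schwann-like cells.

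Neuron-like cells had lower levels of 39 of the 42 ISGs than fibroblast-like cells and higher levels of 2, Cmpk2 and Rsad2 (percent called over all genes 77.3, with 36.8 higher and 40.6 lower). The median log2 fold of the ISGs was -3.43, against -0.03 over all genes. Only 29 of the 42 had enough UMI for tests within the neuron-like sums. The rest entered this fit on the sums of both classes together, a filter that favours genes low in neuron-like cells. The count of 39 and this median include them, so both are partly set by the filter. All sensors, transcription factors, IFIT genes, ISG15 system genes, GTPases and antigen processing genes were lower, as were 4 of 5 OAS genes. Ifi44 had a lowest, median and highest level of 0, 0.0838 and 0.350 CPM in neuron-like cells, with 4 of the 9 libraries at 0, and its log2 fold was -7.10 (SE 0.25, adjusted p = 2.0e-10). Iigp1 had 0.0881, 0.390 and 1.17 CPM, all below the fibroblast-like range (log2 fold -6.79, SE 0.15, adjusted p = 1.7e-11). Isg15 was lower by 6.45 on the log2 scale, Bst2 by 5.83 and Ifitm3 by 5.68. Fibroblast markers stood in neuron-like cells at 1.11% to 39.3% of their fibroblast-like level, with a median of 2.52%. Ifi44, Iigp1 and Isg15 stood below that median, so the size of their folds depends on levels no higher than those of such markers. The part of free fibroblast RNA in them was not tested. The kinase gene Eif2ak2 (PKR), which stops translation when it binds double-stranded RNA, kept more of its level than these, with 19.4 CPM against 64.3 CPM on average.

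Cmpk2, a mitochondrial kinase of the nucleotides UMP and CMP, had 28.0 to 52.4 CPM in neuron-like cells (median 43.3) and 3.12 to 11.4 CPM in fibroblast-like cells (median 6.16). No neuron-like library overlapped a fibroblast-like one, and the log2 fold was 2.31 (SE 0.16, adjusted p = 5.9e-08). Rsad2 had 6.15 to 20.6 CPM (median 9.95) against 0.654 to 3.52 CPM (median 1.37), again without overlap, and a log2 fold of 2.12 (SE 0.34, adjusted p = 0.00010). Rsad2 (chr12:26442746-26456452, minus strand) and Cmpk2 (chr12:26469204-26479837, plus strand) are neighbours on GRCm38, 12.8 kb apart and transcribed away from each other. Compared with neuron-like cells, macrophage-like cells had higher levels of 41 of the 42 ISGs (percent called over all genes 84.9, with 39.1 higher and 45.8 lower; median log2 fold 4.74 against -0.14). Here too, ISGs too low for tests within neuron-like sums entered on both classes together, Oas1a (12 neuron-like UMI) and Zbp1 (11) among them. The count and the median are thus partly set by the filter. Oas1a ranged from 23.4 to 67.2 CPM (median 38.0) in macrophage-like cells and from 0 to 0.724 CPM (median 0.0557) in neuron-like cells, a log2 fold of 8.75 (SE 0.29, adjusted p = 1.4e-11), and its neuron-like level, at 0.331% of the pooled macrophage-like one, was also no higher than the highest share of a macrophage marker there (0.357%). For Zbp1 the ranges were 3.37 to 69.4 CPM (median 15.1) and 0 to 0.466 CPM (median 0), a log2 fold of 8.17 (SE 0.25, adjusted p = 6.3e-12). Cmpk2 was the exception, with 4.10 to 30.6 CPM (median 14.2) in macrophage-like cells and a log2 fold of -0.91 (SE 0.21, adjusted p = 0.0011), while Rsad2 was higher in macrophage-like cells, by 2.42 on the log2 scale.

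Schwann-like cells differed from fibroblast-like cells in both directions, with 16 of 41 ISGs higher and 15 lower (percent called over all genes 68.0, with 27.4 higher and 40.6 lower) and a median log2 fold of 0.10 against -0.14. Of the ISGs, 36 had enough UMI for tests within Schwann-like sums. The rest, Ifi44 (12 UMI) among them, entered on both classes together, which favours calls as lower. The IFIT genes Ifit2, Ifit3 and Ifit3b, which encode proteins that bind RNA or other IFIT proteins, were higher, and Ifit1 was lower. Ifit3 had 32.5 to 178 CPM (median 124) in Schwann-like and 10.2 to 45.3 CPM (median 33.7) in fibroblast-like cells, a log2 fold of 1.79 (SE 0.066, adjusted p = 1.8e-10). Only the library of Per2-/- on day 4, at 32.5 CPM, lay within the fibroblast-like range. Parp14 had 22.8 to 69.7 CPM (median 58.3) against 9.12 to 17.9 CPM (median 13.2), with no overlap (log2 fold 1.82, SE 0.12, adjusted p = 3.8e-08). Of the guanylate-binding proteins, GTPases that attack the vacuoles of pathogens, Gbp3 was higher by 1.73 on the log2 scale, Gbp7 by 1.17, Gbp5 by 1.57 and Gbp2 by 0.45.

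In the other direction, Ifi44 had a median of 0 CPM in Schwann-like cells and a highest level of 0.753 CPM, with 6 of 9 libraries at 0 (log2 fold -5.80, SE 0.30, adjusted p = 3.1e-09). Its share of the fibroblast-like level was below the median share of fibroblast markers in Schwann-like cells (8.64%). Iigp1 ranged from 0 to 9.66 CPM with a median of 1.13, below every fibroblast-like library (log2 fold -4.03, SE 0.33, adjusted p = 2.4e-07). Of the 4 OAS genes tested none was higher and 3 were lower, and Oas3 had 1 UMI in all Schwann-like cells. Stat2 and Irf7 were both lower by 1.40 on the log2 scale, and Irf9 by 0.55. Reads of Ifit3 and Ifit3b, and of other close copies in the OAS and GBP families, may be assigned to the wrong copy or dropped in counting, so the split within a family is uncertain.

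Scaling to total UMI in place of TMM moved the median log2 fold over all genes by -0.20 (macrophage-like against fibroblast-like), 0.46 (neuron-like against fibroblast-like), 0.23 (Schwann-like against fibroblast-like) and -0.61 (macrophage-like against neuron-like). ISG calls were then 30 higher and 7 lower, 2 and 38, 19 and 11, and 41 and 1, respectively. Irf1, Irf9 and Gbp7 lost their call between macrophage-like and fibroblast-like cells, Ifit2 between neuron-like and fibroblast-like cells, and Isg15, Oas2, Tap1 and Ifit1 between Schwann-like and fibroblast-like cells. Gbp2 and Gbp3 gained a call as lower in macrophage-like than in fibroblast-like cells (log2 fold -0.74 and -0.65). Samd9l, Irgm1 and Rtp4 gained one as higher in Schwann-like than in fibroblast-like cells.

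RNA set free from other cells can give UMI in any droplet. Macrophage marker genes stood in neuron-like, fibroblast-like and Schwann-like cells at a median of 0.256%, 0.230% and 0.340% of their macrophage-like level, and at most at 0.616%. The ISGs stood there at a median of 5.71%, 35.3% and 47.9% of their macrophage-like level, and 1 of 42 in each class was at or below the highest marker share, Oas1a in neuron-like cells and Oas3 in the other two classes. The part of macrophage RNA in these levels was not tested. Fibroblast markers stood in neuron-like cells at a median of 2.52% and at most 39.3% of their fibroblast-like level, while the ISGs stood at a median of 13.4% and 36 of the 42 were at or below that highest share. In Schwann-like cells the markers stood at a median of 8.64% and at most 117%, and the ISGs at a median of 121%, with 21 of 42 at or below the highest share. A share of 117% is above the fibroblast-like level itself, so a highest share here is not a ceiling for free RNA. The counts of 36 and 21 therefore do not show how many ISG levels free RNA could account for. The part of fibroblast RNA in these levels was not tested.

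Other genes of the pathway, outside the list of ISGs, were counted in the same fits. Between macrophage-like and fibroblast-like cells 28 of 34 passed as higher (82.4%, against 36.7% of all genes) and 6 as lower (17.6% against 48.2%), including all 5 interferon receptor genes and all 16 upstream sensors, adaptors and interferon regulatory factors as higher. Among the 6 lower genes were the feedback inhibitors Socs1 and Socs3, by 2.84 and 2.33 on the log2 scale. They are part of a longer list of inhibitors and do not stand for the others. In neuron-like cells 25 of 32 were lower than in fibroblast-like cells (78.1%, against 40.6% of all genes) and 1 was higher. Only 27 had enough UMI for tests within neuron-like sums, and the rest entered on both classes together. In Schwann-like cells 8 of 33 were higher (24.2%) and 10 lower (30.3%), neither above the shares over all genes (27.4% and 40.6%). Interferon genes themselves had almost no UMI.

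Between genotypes, no ISG passed the test in any class, for any of the 3 contrasts. In macrophage-like cells the edgeR test called 0 of 42 ISGs for Per1-/- against WT (percent called over all genes 0.0157), 0 for Per2-/- against WT (0.0), and with Per1-/- set against Per2-/- again 0 (0.0865). An unadjusted p under 0.05 was found for 3, 9 and 6 of them (7.14%, 21.4% and 14.3%, against 7.18%, 16.3% and 17.1% of all genes), and DESeq2 called 0, 1 and 0. Over its fits between genotypes and days DESeq2 called 0.0512% to 19.8% of all genes (median 1.445%). Its ISG calls are not set here against the share in their own fit. The median log2 folds by edgeR were 0.11, 0.57 and -0.50, with all genes near 0 (0.01 in each), and Per2-/- was higher than WT for 42 of 42 ISGs. By role, the median fold of Per2-/- against WT was 1.36 for the IFIT family, 1.07 for the GTPases, 0.68 for the OAS family and 0.29 for antigen processing.

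The direction of the Per2-/- difference changed between days. Values in macrophage-like cells follow for the most abundant ISG of each role group, for WT, Per1-/- and Per2-/- in that order. Ifit3 was at 34.4, 39.0 and 8.68 CPM on day 4, at 34.5, 62.6 and 279.8 CPM on day 7 and at 119, 88.2 and 250.3 CPM on day 10. The Per2-/- library was thus the lowest of the 9 on day 4 and among the highest on days 7 and 10. Isg15 was at 57.0, 53.3 and 12.1 CPM on day 4, at 33.6, 52.2 and 158 CPM on day 7 and at 67.4, 55.6 and 136 CPM on day 10. Oasl2 was at 73.0, 64.2 and 17.1 CPM on day 4, at 49.6, 57.9 and 177 CPM on day 7 and at 78.9, 66.7 and 142 CPM on day 10. In both the Per2-/- library was again the lowest on day 4 and the highest on days 7 and 10, while WT was above Per1-/- on day 4, unlike for Ifit3. Bst2 was at 649.9, 669 and 395 CPM on day 4, at 520.5, 759 and 1200.0 CPM on day 7 and at 910.5, 1116 and 1408 CPM on day 10, and was thus higher in Per1-/- than in WT on each day as well.

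The sensor gene Eif2ak2 was at 79.9, 78.2 and 52.3 CPM on day 4, at 68.0, 76.1 and 115 CPM on day 7 and at 87.1, 78.1 and 92.9 CPM on day 10. Irf9, the DNA-binding part of ISGF3, was at 43.9, 41.2 and 30.1 CPM, then at 43.96, 45.3 and 65.5 CPM, and then at 49.7, 48.3 and 54.2 CPM. In both the day 10 libraries were close together. Irgm1, an IRG GTPase that regulates the others of its family, was at 50.9, 54.2 and 31.1 CPM on day 4, at 44.3, 48.5 and 101 CPM on day 7 and at 74.0, 66.1 and 101 CPM on day 10. Psmb8 was at 170, 191 and 133 CPM, then at 157, 178 and 229 CPM, and then at 179, 180.5 and 237 CPM. For each of the 8 genes the Per2-/- library was the lowest of its day on day 4 and the highest on days 7 and 10.

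Over the whole list, the Per2-/- library of day 4 was the lowest of the 9 for 37 of 42 ISGs in macrophage-like cells, 29 in Schwann-like, 26 in fibroblast-like and 11 in neuron-like cells. In macrophage-like cells the Per2-/- library of day 7 was the highest for 31 and that of day 10 for 10. Such extremes were not counted over all genes, so these counts do not show whether ISGs differ from other genes in this. The Schwann-like sum of Per2-/- on day 4 was also the smallest of its class (1751588 UMI). Among ISGs with at least 10 UMI in the pair of libraries, the median log2 ratio of Per2-/- to WT in macrophage-like cells was -0.83 on day 4 (2 of 38 higher), 1.43 on day 7 (42 of 42 higher) and 0.60 on day 10 (38 of 42 higher). It was -0.91, 0.37 and -0.10 in fibroblast-like cells, -1.29, 0.73 and 0.09 in Schwann-like cells and -0.57, 0.50 and 0.05 in neuron-like cells. Over all genes these medians lay between -0.10 and 0.02, except for fibroblast-like cells on day 10 (-0.16), where the ISG median was thus above that of all genes. The sign on day 4 and day 7 was thus the same in all 4 classes. The median ratio of Per1-/- to WT was 0.03, 0.34 and -0.24 in macrophage-like cells, with 36 of 42 ISGs higher on day 7 and 29 of 42 lower on day 10, where all genes had medians of -0.02, -0.09 and -0.11. Differences within a day rest on 1 library per genotype and have no test.

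**Figure D3:**
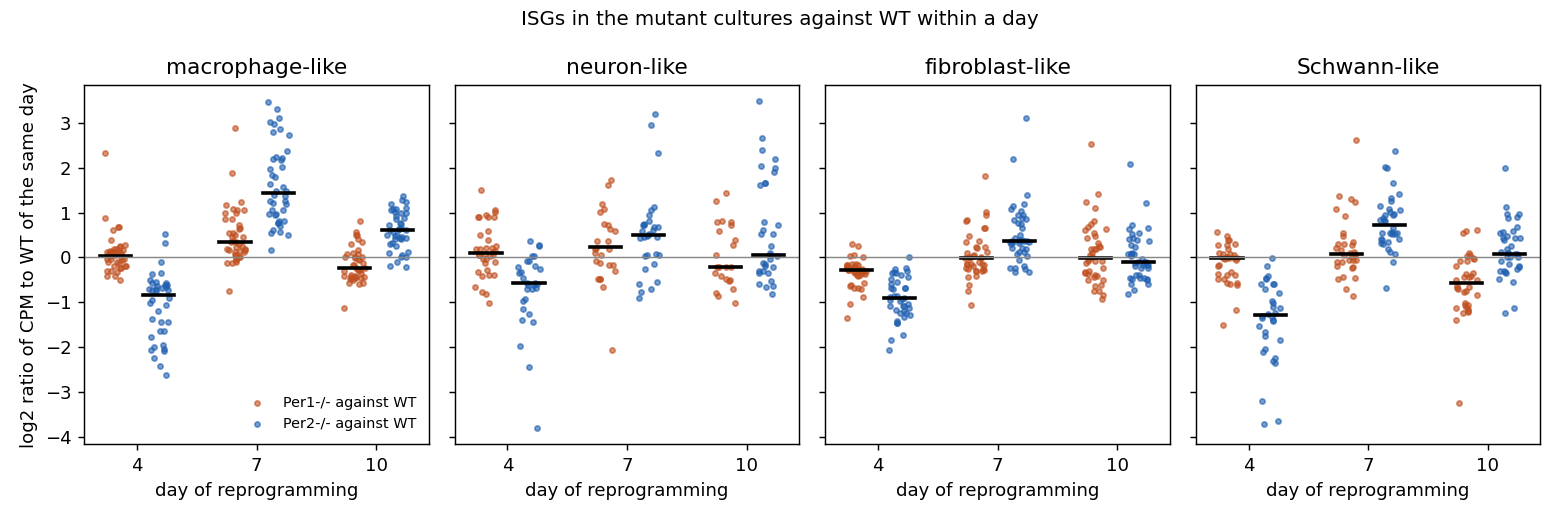
Log2 ratio of CPM between libraries of the same day, by class, day and genotype, with a point for each ISG with at least 10 UMI in the pair and a bar at the median (ratios against 0 are not drawn). For Per2-/- against WT in macrophage-like cells the median goes from -0.83 on day 4 to 1.43 on day 7 and 0.60 on day 10.

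The macrophage-like class was made of 3 clusters, of which 1 held day 4 and day 7 cells, 1 day 10 cells and 1 cycling cells of all days. Within the first, the summed ISG level was 2825, 2829 and 1583 CPM on day 4 and 2149, 2866 and 5319 CPM on day 7 for WT, Per1-/- and Per2-/-. In the second it was 3345, 3479 and 4886 CPM on day 10. In the cycling cluster it was 2789, 2733 and 1645 CPM on day 4, 1900.2, 2704 and 4727 CPM on day 7, and 2489, 3317 and 4487 CPM on day 10. Per2-/- was the lowest on day 4 and the highest on days 7 and 10 within each cluster. In the fibroblast-like clusters with at least 20 cells in both libraries, the summed level of Per2-/- was below that of WT in 6 of 6 clusters on day 4 (ratios 0.540 to 0.763), above it in 6 of 6 on day 7 (1.245 to 1.59) and above it in 7 of 7 on day 10 (1.11 to 1.35). For Per1-/- it was below WT in 6 of 6 on day 4 (0.824 to 0.937), in 3 of 6 on day 7 and in 6 of 7 on day 10. These sums include Bst2 and Ifitm3. Over the whole fibroblast-like class, the other 40 ISGs stood in Per2-/- at 0.979 of their WT level on day 10, and by cluster this was not examined.

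Leaving out the Per2-/- library of day 4, an alternative that keeps 8 libraries, changed the calls in macrophage-like cells more than any other omission. Per2-/- was then higher than WT for 35 of 42 ISGs (median log2 fold 0.98), when 9.81% of all genes passed, and Per1-/- was lower than Per2-/- for 30, when 13.6% passed. Irf7 had a log2 fold of 1.73 for Per2-/- against WT in that fit, and Ifit3 of 2.07. The library left out is the one in which 37 of 42 ISGs were lowest in macrophage-like cells. Its omission by itself raises the mean of the Per2-/- libraries for those genes in both contrasts. The calls of that fit therefore do not test a Per2-/- difference independently of this choice. In Schwann-like cells 7 and 13 of 36 passed in these contrasts (3.19% and 7.37% of all genes), in neuron-like cells 2 and 1 of 29 (0.23% and 0.0815%) and in fibroblast-like cells 0 of the ISGs and of all genes. Without the Per2-/- library of day 7, by contrast, no ISG passed in macrophage-like cells and the median fold of Per2-/- against WT was 0.16.

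Of single ISGs in macrophage-like cells, Gbp7 had the smallest p against WT in both mutants. It was at 7.55, 17.0 and 35.5 CPM in WT, at 12.1, 38.4 and 50.3 CPM in Per1-/- and at 10.8, 67.0 and 74.2 CPM in Per2-/- on days 4, 7 and 10. Both mutants were above WT on each day, with a log2 fold of 0.92 (SE 0.22, adjusted p = 0.43) for Per1-/- and of 1.41 (SE 0.22, adjusted p = 0.17) for Per2-/-, and over the 16 alternatives the adjusted p ran from 0.027 to 1.0 and from 9.1e-05 to 0.57. Gbp5, which takes part in inflammasome activation, was at 0.559, 0.782 and 2.78 CPM in WT and at 0.597, 5.82 and 3.70 CPM in Per1-/- (log2 fold 1.62, SE 0.52, adjusted p = 0.61). The gap was on day 7. Gbp3 was at 2.52, 3.60 and 5.91 CPM in WT, at 3.05, 4.91 and 4.51 CPM in Per1-/- and at 3.13, 10.0 and 10.0 CPM in Per2-/-, and Per2-/- was the highest on each day. Against WT the log2 fold of Per2-/- was 1.07 (SE 0.26, adjusted p = 0.18), and that of Per1-/- against Per2-/- was -0.87 (SE 0.23, adjusted p = 0.15). Iigp1 was at 2.32, 5.88 and 6.66 CPM in Per1-/- and at 0.964, 32.8 and 38.0 CPM in Per2-/- (log2 fold -2.05, SE 0.53, adjusted p = 0.15), with Per1-/- above Per2-/- on day 4 and below on the later days, and the fold turned to 0.10 with Y-linked CPM as a covariate.

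In neuron-like cells 29 ISGs had enough UMI for the genotype tests, and edgeR called 0 of 29 in each contrast (percent called over all genes 0.00731, 0.0 and 0.0 in the order above). An unadjusted p under 0.05 was found for 0, 2 and 2 (0%, 6.90% and 6.90%, against 3.52%, 4.28% and 6.34% of all genes), and DESeq2 called 0 in each. Psmb8 was at 0.724, 1.40 and 1.17 CPM in WT, at 1.36, 1.81 and 2.79 CPM in Per1-/- and at 0.881, 2.45 and 3.61 CPM in Per2-/- on days 4, 7 and 10, lowest in WT on each day (log2 fold 0.85 and 0.90 against WT). Bst2 was at 8.80, 1.90 and 3.22 CPM in WT and at 4.49, 14.8 and 20.3 CPM in Per2-/-, lower in Per2-/- on day 4 and higher later (log2 fold 1.41). Ifit2 was at 20.01, 17.1 and 11.4 CPM in WT and at 15.9, 15.2 and 6.58 CPM in Per1-/-, lower in Per1-/- on each day (log2 fold -0.37, adjusted p = 1.0). Samd9l, an antiviral factor that restrains translation, was at 17.4, 16.7 and 5.82 CPM in Per1-/- and at 13.7, 5.24 and 5.28 CPM in Per2-/-, and Gbp7 at 2.14, 6.15 and 6.33 CPM and at 1.41, 1.86 and 3.61 CPM. Both were higher in Per1-/- than in Per2-/- on each day, Samd9l by little on day 10 (from 23 and 63 UMI), with adjusted p of 0.69.

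In fibroblast-like cells, whose clusters differ between libraries, edgeR called 0 of 42 ISGs in each contrast (percent called 0.0, 0.0 and 0.0), with an unadjusted p under 0.05 for 3, 3 and 7 (7.14%, 7.14% and 16.7%, against 7.65%, 7.15% and 13.3% of all genes) and 0, 0 and 2 calls by DESeq2. As above, the DESeq2 calls are not set against the share of all genes in their own fit. Xaf1, a partner of the apoptosis inhibitor XIAP, was at 52.0, 36.6 and 46.1 CPM in WT, at 64.5, 64.8 and 76.9 CPM in Per1-/- and at 24.4, 47.4 and 49.4 CPM in Per2-/- on days 4, 7 and 10, highest in Per1-/- on each day (log2 fold 0.67 against WT, adjusted p = 0.63). Cmpk2 was at 7.14, 6.16 and 11.4 CPM in WT and at 4.46, 3.65 and 6.73 CPM in Per1-/-, lower on each day (log2 fold -0.66, adjusted p = 0.64), though with Y-linked CPM as a covariate the fold was 0.094. Gbp2 was at 7.07, 6.58 and 7.11 CPM in WT, at 6.28, 13.2 and 12.6 CPM in Per1-/- and at 3.24, 5.76 and 4.33 CPM in Per2-/-. Per2-/- was the lowest on each day (log2 fold -0.63 against WT, adjusted p = 0.67), and the log2 fold of Per1-/- against Per2-/- was 1.248 (adjusted p = 0.30). Trim25, the ubiquitin ligase that activates RIG-I, was at 42.8, 35.7 and 36.5 CPM in WT and at 34.6, 30.6 and 20.6 CPM in Per2-/- (log2 fold -0.37). Tap1 was at 15.3, 18.2 and 19.1 CPM in Per1-/- and at 12.4, 13.7 and 14.2 CPM in Per2-/- (log2 fold 0.38), and neither gene passed.

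In Schwann-like cells edgeR called 0 of 36 ISGs in each contrast (percent called 0.116, 0.0 and 0.0), with an unadjusted p under 0.05 for 1, 0 and 5 (2.78%, 0% and 13.9%, against 6.93%, 8.21% and 11.6% of all genes) and no call by DESeq2. Xaf1 was at 80.7, 53.7 and 72.1 CPM in WT and at 119, 126 and 111 CPM in Per1-/- on days 4, 7 and 10, so that here too Per1-/- was above WT on each day (log2 fold 0.80, adjusted p = 0.61). Gbp2 was at 10.9, 11.5 and 13.8 CPM in WT, at 14.3, 28.2 and 8.47 CPM in Per1-/- and at 7.99, 7.19 and 6.29 CPM in Per2-/-, lowest in Per2-/- on each day (log2 fold -0.79 against WT, adjusted p = 0.61). Per1-/- against Per2-/- gave a log2 fold of 1.19 for Gbp2 (adjusted p = 0.20). Oas1a was at 3.47, 1.74 and 1.04 CPM in WT, at 2.26, 0.854 and 0.770 CPM in Per1-/- and at 1.14, 7.01 and 4.11 CPM in Per2-/-, with a log2 fold against WT of 1.26 in Per2-/-, and of -1.84 in Per1-/- against Per2-/-. Iigp1 was at or below 1.66 CPM in 7 of the 9 libraries, with 9.66 CPM in WT and 7.80 CPM in Per2-/- on day 10 (log2 fold of Per1-/- against WT -1.64, adjusted p = 0.76). The direction of that fold was not stable, with 1.13 under the Y-linked covariate and -2.24 to 0.35 when 1 library was left out.

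Whether a genotype difference itself differed between classes was tested as an interaction of class and genotype over 18 sums. No ISG passed for the macrophage-like or the neuron-like class against the fibroblast-like class, in Per1-/- or Per2-/- against WT (percent called 0.00606, 0.0, 0.0 and 0.0). The unadjusted p was under 0.05 for 10 (macrophage-like, Per1-/-), 22 (macrophage-like, Per2-/-), 5 (neuron-like, Per1-/-) and 3 (neuron-like, Per2-/-) ISGs, which is 23.8%, 52.4%, 11.9% and 7.14% of the 42 against 9.72%, 16.7%, 4.26% and 5.55% of all genes, and DESeq2 was not run for this term. For Per2-/- against WT the macrophage-like fold exceeded the fibroblast-like one for 39 of 42 ISGs, by a median of 0.61 on the log2 scale (0.13 over all genes). Gbp7 had a difference of 1.68 (SE 0.18, adjusted p = 0.074) and Iigp1 of 2.12 (SE 0.42, adjusted p = 0.098). Without the Per2-/- library of day 4, 24 ISGs passed in the macrophage-like difference for Per2-/- against WT, when 10.3% of all genes did. That fit leaves out the library in which most ISGs were lowest in macrophage-like cells. In simulated data this test recovered 6% of 2-fold and 68% of 4-fold differences. The simulated counts had the same fixed dispersion for every gene and no day effects, so recovery in the real sums may be lower. A lack of calls thus leaves room for differences, also large ones such as the 2.12 of Iigp1.

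Between days, Gbp7 was the only ISG to pass in macrophage-like cells, on day 7 against day 4 (1 of 42 called, percent called over all genes 0.385). It rose from 7.55, 12.1 and 10.8 CPM on day 4 to 17.0, 38.4 and 67.0 CPM on day 7 in WT, Per1-/- and Per2-/-, higher in each genotype, with a log2 fold of 1.89 (SE 0.23, adjusted p = 0.029). The call was lost when the Per1-/- library of day 4 (adjusted p = 0.14), the Per1-/- library of day 7 (0.16), the Per2-/- library of day 7 (0.10) or the WT library of day 10 (0.077) was left out. The median log2 fold of the 42 ISGs was 0.57 on day 7 against day 4, and 0.05 without the Per2-/- library of day 4. For day 10 against day 7 edgeR called 0 of 42 (percent called 1.12), with an unadjusted p under 0.05 for 1 (2.38%, against 9.08% of all genes) and 0 calls by DESeq2.

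In neuron-like cells 4 of 29 ISGs passed for day 7 against day 4 and 2 of 29 for day 10 against day 7, against 18.9% and 25.1% of all genes. Cmpk2 rose from 32.7, 35.6 and 28.0 CPM on day 4 to 48.6, 44.9 and 50.5 CPM on day 7 in WT, Per1-/- and Per2-/- (log2 fold 0.60, SE 0.11, adjusted p = 0.0038), with no overlap between days. Its neighbour Rsad2 was at 9.64, 9.95 and 12.4 CPM on day 4, at 12.6, 20.6 and 17.5 CPM on day 7 and at 6.15, 8.10 and 6.29 CPM on day 10. Rsad2 thus rose to day 7 (log2 fold 0.63, SE 0.17, adjusted p = 0.024) and fell to day 10 (log2 fold -1.23, SE 0.20, adjusted p = 0.0013), and day 10 lay below both earlier days in every genotype. On day 10 Cmpk2 stood at 43.3, 52.4 and 42.4 CPM. With a finer clustering the rises lost their calls (log2 fold 0.31 and adjusted p = 0.067 for Cmpk2, 0.41 and 0.12 for Rsad2). That of Rsad2 was also lost with DESeq2 (adjusted p = 0.052) and without the WT or Per1-/- library of day 4 or the Per1-/- or Per2-/- library of day 7, while its fall to day 10 kept its call in all 15 alternatives. None of these alternatives changes the counting software or feature table of day 10. They therefore do not separate a fall to day 10, here or of Ifit2 below, from the processing of that day.

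Eif2ak2 fell from 25.5, 26.0 and 24.3 CPM on day 4 to 17.5, 16.7 and 17.8 CPM on day 7, with no overlap (log2 fold -0.55, SE 0.14, adjusted p = 0.017). Samd9l fell from 16.5, 17.4 and 13.7 CPM to 7.87, 16.7 and 5.24 CPM (log2 fold -0.85, SE 0.24, adjusted p = 0.027), with the Per1-/- library of day 7 within the range of day 4. Each of these calls was lost in 4 of 15 alternatives, all of them omissions of 1 library: for Eif2ak2 without Per1-/- of day 4 or without any library of day 7, and for Samd9l without the WT or Per2-/- library of day 4 or day 7. Ifit2 fell from 17.1, 15.2 and 14.4 CPM on day 7 to 11.4, 6.58 and 10.6 CPM on day 10 (log2 fold -0.57, SE 0.18, adjusted p = 0.039), a call kept in 7 of 15 alternatives. It was lost with DESeq2 (adjusted p = 0.068), with the finer clustering, and without the WT library of day 4, any library of day 7, or the WT or Per1-/- library of day 10.

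**Figure D4:**
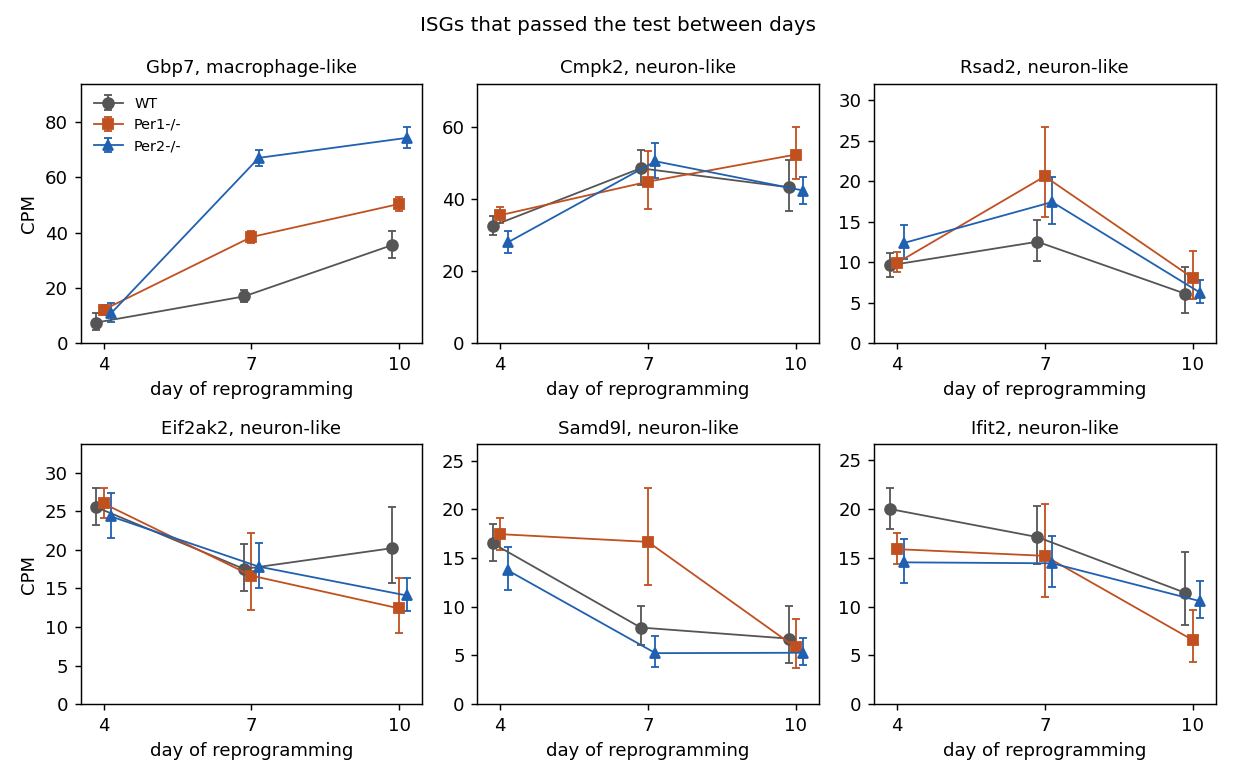
CPM of Gbp7 in macrophage-like cells and of Cmpk2, Rsad2, Eif2ak2, Samd9l and Ifit2 in neuron-like cells on days 4, 7 and 10, with a line per genotype and 95% Poisson intervals for counting error. In neuron-like cells Rsad2 lies between 12.6 and 20.6 CPM on day 7 and between 6.15 and 8.10 CPM on day 10.

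In fibroblast-like cells edgeR called 0 of 42 ISGs for day 7 against day 4 and 0 for day 10 against day 7 (percent called over all genes 2.01 and 1.11), with an unadjusted p under 0.05 for 4 and 1 (9.52% and 2.38%, against 18.9% and 10.5% of all genes) and 1 call each by DESeq2. Those DESeq2 calls too are not set against the share of all genes in their own fit. In Schwann-like cells it called 0 of 36 in both (0.591 and 2.63), with an unadjusted p under 0.05 for 1 and 2 (2.78% and 5.56%, against 15.8% and 14.7% of all genes) and 0 calls by DESeq2. Isg15 shows the spread between fibroblast-like sums, whose clusters differ as given above: for WT, Per1-/- and Per2-/- it was at 201, 169 and 85.4 CPM on day 4, at 90.7, 67.1 and 200.4 CPM on day 7 and at 135, 70.5 and 196 CPM on day 10. The genotypes changed in opposite directions from day 4 to day 7. Of the pathway genes outside the list, none passed between genotypes. In neuron-like cells 1 of 27 passed on day 7 against day 4 (3.70%, below the 18.9% of all genes), with Ptpn11 lower, and 4 of 27 on day 10 against day 7 (14.8%, below 25.1%), with Ifnar2, Ifngr2 and Traf3 higher and Ptpn2 lower.

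The level per cell followed that of the sums. After each cell was thinned to 3000 UMI, which left out 5 cells, the median macrophage-like cell held 15 and 13 ISG UMI in the Per2-/- libraries of days 7 and 10, 4 in that of day 4 and 6 to 9 in the other libraries. The lowest 10% of cells moved with the rest, with at most 1 ISG UMI in Per2-/- of day 4 and at most 7 in Per2-/- of day 7. Medians were 4 to 7 in fibroblast-like cells, 2 to 6.5 in Schwann-like cells and 0 or 1 in neuron-like cells, of which 42.9% to 58.7% held no ISG UMI. Unthinned medians per 1000000 UMI ran from 1417 to 4864 in macrophage-like cells and from 167 to 264 in neuron-like cells.

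**Figure D5:**
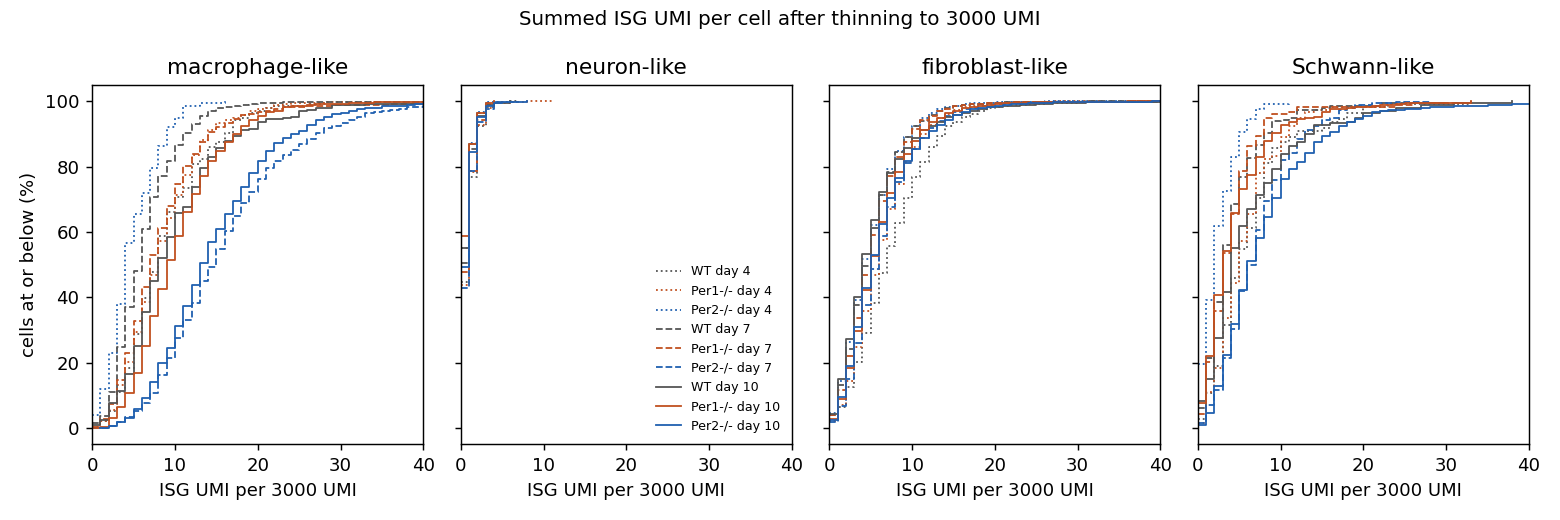
Cumulative share of cells (percent) by ISG UMI per cell after thinning to 3000 UMI, with a panel for each class and a line for each library. Macrophage-like curves run from the Per2-/- library of day 4 (median 4) to that of day 7 (median 15), and neuron-like curves rise at 0 and 1.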

How the data were processed

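The authors deposited 1 matrix of UMI counts per library, made, per the file headers, with Cell Ranger 4.0.0 (days 4 and 7) and 6.0.0 (day 10) on mm10. The study's methods name another version. Genotype and day came from the labels. A minimum of 3000 UMI and a maximum of 20% mitochondrial UMI left 81999 of 95603 barcodes, and 7164 doublets were left out by Scrublet rank. Cells were clustered with scanpy 1.11.5 and leidenalg 0.10.2 without the ISGs (230 genes left out), and clusters were named by marker lists. A low-UMI cluster with 97.5% of its cells from WT on day 10 was left unnamed. Other clusters were left unnamed as well, among them clusters of 4758 and 3502 cells that carried 18 of the fibroblast markers but had leading genes of another class. The fibroblast-like class thus does not hold all cells with such markers.

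Counts were summed per class and library and tested with the quasi-likelihood F-test of edgeR 4.0.16 (R 4.3.3; TMM, filterByExpr), with library as a block between classes and day plus genotype within a class, and Benjamini-Hochberg adjustment over all genes (threshold 0.05). DESeq2 1.42.0 was an alternative. SEs were derived from the fold and F. The edgeR fit was tested on simulated data, where it recovered 44% of 2-fold and 96% of 4-fold changes between genotypes in macrophage-like sums. These data had a fixed dispersion and no day effects, so the shares need not hold for the real sums. CPM are UMI per 1000000 UMI of the sum, and intervals cover counting error only.

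The ISGs and the other lists were chosen with earlier results of these data known. Named in full are the most abundant ISG of each role group in macrophage-like cells, up to 4 past the threshold per genotype or day contrast (or the 2 with the smallest p), and the 2 largest folds in each direction between classes. Ddx58, Dhx58, Irf7, Tap1 and others given with a fold only, and Isg15 in fibroblast-like cells, were added after their values were seen.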

Additional observations from a re-analysis of the deposited data

Results flagged for a closer look

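The summed ISG level of Per2-/- relative to WT changed direction between days in each class. The ratio of Per2-/- to WT was 0.569 on day 4, 2.52 on day 7 and 1.496 on day 10 in macrophage-like cells, and 0.388, 1.71 and 1.28 in Schwann-like cells. It was 0.647, 1.251 and 1.14 in fibroblast-like cells and 0.703, 1.30 and 1.15 in neuron-like cells. Without Bst2 and Ifitm3 the ratios of day 10 turned to 0.979 in fibroblast-like and 0.960 in neuron-like cells, while those of days 4 and 7 kept their direction in all 4 classes. The difference between the days was not tested, since each ratio compares 1 library with 1 other, and all 4 classes of a day come from the same pair of libraries.

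Mx1, a GTPase that traps viral nucleocapsids, was outside the comparisons since it was listed for days 4 and 7 only. Its mean level over these 6 libraries was 10.0 CPM in macrophage-like, 1.20 CPM in fibroblast-like, 0.781 CPM in Schwann-like and 0.0999 CPM in neuron-like cells. In macrophage-like cells it was at 6.43, 5.51 and 2.41 CPM on day 4 and at 5.71, 8.27 and 31.7 CPM on day 7 for WT, Per1-/- and Per2-/-. Per2-/- was thus the lowest on day 4 and the highest on day 7.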

How the results depend on the processing

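Library was a block between classes and day a term between genotypes; replicate numbers pair nothing more, with 1 library per genotype and day. Of the counts of ISGs past the threshold, 373 of the values under an alternative stayed within 1.5 times of the value reported and 51 did not; of the median folds of the ISGs 326 moved by less than the SD over the fits without 1 library and 98 by more; for single genes, 655 values kept direction and call, 20 gained and 27 lost the call and 4 changed sign. Without a filter on low counts, 1, 4 and 3 ISGs passed in macrophage-like cells for Per1-/- against WT, Per2-/- against WT and Per1-/- against Per2-/-, and 6 for day 7 against day 4. In neuron-like cells 1 passed for Per2-/- against WT, 3 for Per1-/- against Per2-/- and 5 for day 10 against day 7, and in Schwann-like cells 1 for Per1-/- against WT, 7 for Per1-/- against Per2-/- and 4 for day 10 against day 7. The macrophage-like minus fibroblast-like difference of Per2-/- against WT had 1 in that setting and 1 with doublets kept. DESeq2 called 1 in macrophage-like cells for Per2-/- against WT and 3 for day 7 against day 4, 1 in neuron-like cells for day 10 against day 7, and in fibroblast-like cells 2 for Per1-/- against Per2-/- and 1 for each step between days. In the fits between genotypes and days and of their differences, the share of all genes called ran from 0% to 17.9% without the filter (median 1.26%), from 0.0512% to 19.8% with DESeq2 (1.445%) and from 0% to 25.1% as reported (0.0067%). These ranges pool all fits of a setting, so they do not show whether an ISG count exceeds the share over all genes in its own fit. The same limit holds for the counts with 1 library left out that follow, apart from those given above with their shares. Leaving out 1 library gave 0 to 35 for Per2-/- against WT, 0 to 30 for Per1-/- against Per2-/- and 0 to 2 for day 7 against day 4 in macrophage-like cells. In neuron-like cells it gave 0 to 2, 0 to 1, 1 to 6 (day 7 against day 4) and 1 to 3 (day 10 against day 7), and in fibroblast-like cells 0 to 1 for Per1-/- against Per2-/- and for each step between days. In Schwann-like cells it gave 0 to 1 (Per1-/- against WT), 0 to 7, 0 to 13, 0 to 5 and 0 to 6, and the macrophage-like and neuron-like differences from fibroblast-like cells for Per2-/- against WT gave 0 to 24 and 0 to 3. The upper ends of 35, 30, 7, 13, 24 and 6 (neuron-like) came without the Per2-/- library of day 4. Between classes the counts were 35 to 39, 40 to 41, 27 to 32 and 42. With Y-linked CPM as a covariate, Per1-/- against Per2-/- gave a log2 fold of 0.10 for Iigp1 in macrophage-like cells, and Per1-/- against WT gave 0.094 for Cmpk2 in fibroblast-like and 1.13 for Iigp1 in Schwann-like cells, all reversed and not past the threshold; leaving out 1 library moved the last from -2.24 to 0.35, reversed without the Per1-/- library of day 10. The cause of these changes was not tested. Scaling to total UMI and keeping the low-UMI cluster were chosen after seeing the data. Low counts kept 13 of the 42 ISGs out of the tests within the neuron-like class and 6 out of those within the Schwann-like class.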

Other observations

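Cells with at least 1% of their UMI in the 42 ISGs, a limit chosen after the data were seen, numbered 124 of 6406 macrophage-like, 60 of 40015 fibroblast-like and 22 of 2531 Schwann-like cells, and 0 of 6754 neuron-like cells. Of the 124 macrophage-like cells, 59 were in the Per2-/- library of day 7 (5.03% of its macrophage-like cells) and 31 in that of day 10 (3.12%), 15 and 14 in the Per1-/- libraries of these days, and 0 in Per2-/- of day 4. In Per2-/- of day 7 they held 10.1% of the ISG UMI of the class and in that of day 10 6.93%. The median macrophage-like cell of these 2 libraries had 0.486% and 0.453% of its UMI in ISGs, against 0.142% to 0.311% in the other libraries, so the counts of cells past the limit were highest where the level of the whole class was highest.

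The 60 fibroblast-like cells past the limit had 1554 CPM of Ifit3 against 28.3 CPM in the other fibroblast-like cells, 1595 against 144 CPM of Isg15 and 413 against 1.56 CPM of Rsad2. The limit itself fixes that their ISGs are high. Cxcl10, a chemokine gene outside the list that interferon induces, was at 271 against 0.408 CPM in them. In the macrophage-like cells past the limit Cxcl10 was at 526 against 3.499 CPM, with a UMI in 22 of the 124 cells, and the 2 UMI of Ifnb1, the gene of interferon beta, found in macrophage-like cells were in 2 of these 124.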
